A study of Homo sapiens with 6 samples.

Results

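The 10 genes studied here, of serine synthesis and mitochondrial and cytosolic folate metabolism, were measured in 6 RNA-seq libraries of cells labelled NTera-2 (NT2), a human cell line derived from embryonal carcinoma of the testis. They were chosen by name as the 3 enzymes of serine synthesis (PHGDH, PSAT1 and PSPH), both serine hydroxymethyltransferases (SHMT1 and SHMT2), the 4 MTHFD enzymes (MTHFD1, MTHFD1L, MTHFD2 and MTHFD2L) and ALDH1L2. All 10 were found among the 58051 genes of the deposited expression table. The titles give 3 libraries to mimics of piR-36249, a piRNA (a class of small RNA known mainly from germ cells), and 3 to a scramble control. The genotype field calls the mimic libraries a piR-36249 knockdown and the scramble libraries control, whereas the treatment field speaks of overexpressed mimics or scramble. The titles were followed, and every difference is mimic minus scramble. Nothing in the labels gives separate cultures, a dose or a time, and the p-values therefore speak of library-to-library spread alone, which may be technical.

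Serine is built from the glycolytic intermediate 3-phosphoglycerate by PHGDH, PSAT1 and PSPH in turn. SHMT1 in the cytosol and SHMT2 in mitochondria then split serine into glycine and a carbon unit carried on tetrahydrofolate. In mitochondria MTHFD2 or MTHFD2L oxidises that unit and MTHFD1L releases it as formate, which leaves for the cytosol, where MTHFD1 takes it up for purine, thymidylate and methyl group synthesis. Proliferating and embryonic cells are known to rely on the mitochondrial branch, and the transcription factor ATF4 is known to activate several of these genes when amino acids run short.

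Values are FPKM (fragments or reads scaled to gene length and to library depth), a scale on which genes can be compared. The depth implied by the value of 1 read was 48.0 to 58.6 M reads in the mimic libraries and 52.8 to 62.7 M in the scramble libraries. At this depth 10 reads on 1 kb of exon were worth 0.159 to 0.208 FPKM. Reads of each gene were recovered from its FPKM, exon length and this depth. The labelled cell type was checked against 8 pluripotency markers. NANOG, SOX2, TDGF1, L1TD1 and SALL4 were listed at 0 in all libraries, LIN28A reached 0.00945 FPKM in a single scramble library, and POU5F1 and DPPA4 stayed at or under 0.268 FPKM. Of 8 endothelial markers, 5 (PECAM1, CDH5, TIE1, TEK and EGFL7) were above 1 FPKM in all libraries, none was at 0, and KDR, VWF and CLDN5 stayed at or under 0.525 FPKM. The summed level of the 8 was 533.1 to 586.4 FPKM in mimic libraries and 431.8 to 464.4 FPKM in scramble libraries, with the 5 abundant markers called higher with mimic; EGFL7 lost that call without mimic replicate 1 or 3, without scramble replicate 2 and with no filter, and TIE1 without mimic replicate 3. The pluripotency markers therefore go against the label, and the libraries are named here by their titles alone. The 6 fibroblast markers summed to 0.981 to 1.14 FPKM in mimic libraries and 0.491 to 0.657 FPKM in scramble libraries, and the 5 blood markers to at most 0.182 FPKM. Among 4 epithelial markers CDH1 was at 0 and EPCAM at most 0.165 FPKM, while KRT8 and KRT18 lay between 129.8 and 181.04 FPKM. The part of this marker shift in the results below was not tested. In bulk RNA, fewer cells that express a gene and less of its RNA per cell cannot be told apart.

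The starts of PHGDH, PSAT1 and MTHFD2 are shown, which had the largest log2 fold changes of FPKM + 1 among the tested enzyme genes. Those of MTHFD1 and MTHFD1L, with small changes, are shown as well. All of these were called lower with mimic, but direction alone did not pick them. SHMT1 has a RefSeq start and was also called lower (-0.18, against -0.17 for MTHFD1), and its sequence is not shown. Sequences are the 250 bases before the RefSeq start on GRCh38.p14 (all on the plus strand), and MTHFD1L, which has several listed starts, is shown at the one listed first. Capitals mark 3 motifs searched on both strands: CCAAT, the box bound by NF-Y, CACGTG, the E-box bound by MYC with MAX, and TGATGNAA, the composite element bound by ATF4 with C/EBP proteins. MTHFD1 and MTHFD1L were the only enzyme genes with CACGTG or TGATGNAA in a window, so the sequences shown favour those motifs.
PHGDH, chr1:119711684-119711933: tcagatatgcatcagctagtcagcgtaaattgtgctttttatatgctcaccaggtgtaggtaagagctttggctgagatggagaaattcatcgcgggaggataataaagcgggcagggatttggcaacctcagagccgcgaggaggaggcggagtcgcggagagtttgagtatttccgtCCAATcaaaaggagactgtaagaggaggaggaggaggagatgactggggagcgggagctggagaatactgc
PSAT1, chr9:78296875-78297124: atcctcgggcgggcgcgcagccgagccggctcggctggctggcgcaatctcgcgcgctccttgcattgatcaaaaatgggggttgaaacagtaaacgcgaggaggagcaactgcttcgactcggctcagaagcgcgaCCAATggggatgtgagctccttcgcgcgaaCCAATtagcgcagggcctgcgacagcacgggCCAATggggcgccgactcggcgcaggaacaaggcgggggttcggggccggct
MTHFD2, chr2:74198365-74198614: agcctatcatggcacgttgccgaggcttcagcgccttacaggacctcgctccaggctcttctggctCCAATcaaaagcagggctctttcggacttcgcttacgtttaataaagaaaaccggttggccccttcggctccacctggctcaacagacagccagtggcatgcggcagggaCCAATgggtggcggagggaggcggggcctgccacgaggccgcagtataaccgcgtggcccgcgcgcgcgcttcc
MTHFD1, chr14:64388103-64388352: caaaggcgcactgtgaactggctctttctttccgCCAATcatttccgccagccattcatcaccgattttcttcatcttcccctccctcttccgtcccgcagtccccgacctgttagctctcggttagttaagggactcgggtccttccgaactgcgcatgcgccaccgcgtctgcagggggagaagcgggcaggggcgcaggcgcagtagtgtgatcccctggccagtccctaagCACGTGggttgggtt
MTHFD1L, chr6:150866236-150866485: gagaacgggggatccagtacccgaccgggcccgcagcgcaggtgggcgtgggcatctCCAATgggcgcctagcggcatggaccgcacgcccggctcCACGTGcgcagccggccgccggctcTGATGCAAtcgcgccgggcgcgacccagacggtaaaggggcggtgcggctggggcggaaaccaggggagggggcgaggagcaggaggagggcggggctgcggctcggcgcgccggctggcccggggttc

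RefSeq promoters matched 7 of the 10 genes, the others being PSPH, SHMT2 and ALDH1L2. CCAAT stood 3 times before PSAT1, at -113, -83 and -52 from the start, 2 times before MTHFD2 (-184 and -74) and SHMT1 (-76, and -25 on the other strand), and 1 time before PHGDH (-71), MTHFD1 (-216) and the shown start of MTHFD1L (-193). Both listed windows of MTHFD2L lacked all 3 motifs. Of all 35116 promoter windows of this length, CCAAT was found in 32.0%. The E-box CACGTG, found in 6.35% of all windows, stood before MTHFD1 (-15) and MTHFD1L (-154). In MTHFD1L it stood at 2 of the 4 listed starts. TGATGNAA, found in 3.14%, stood before MTHFD1L alone among the 7 genes (-129, as TGATGCAA), at the same 2 starts, whose windows overlap. The first 30 bases after the shown starts of PSAT1 and MTHFD1L were not found in a GENCODE 29 transcript of the gene. Such a match was found for the MTHFD1L start listed as number 2, whose window held CCAAT (-40) but neither other motif. No 2 of the marked motifs overlapped each other. A match of letters is no evidence of binding, and a missing match says only that the letters are not in this window.

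The serine synthesis enzymes were all lower with mimic. PHGDH, the oxidising first step (ENSG00000092621, chromosome 1, 119648411 to 119744226, plus strand, GRCh38), measured 12.1, 12.7 and 12.5 FPKM in mimic libraries, against 18.8, 18.1 and 19.4 FPKM in scramble libraries. The groups did not overlap, and the mean was 12.4 ± 0.261 FPKM with mimic and 18.8 ± 0.649 FPKM with scramble (SD, n = 3 each), a ratio of 0.662. The test was limma with a variance trend on log2(FPKM + 1), adjusted over the 12912 genes that averaged 0.5 FPKM or more, and it gave PHGDH a log2 fold change of -0.56 (SE 0.042, limma adjusted p = 7.81e-05).

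PSAT1, the aminotransferase that makes phosphoserine with nitrogen from glutamate (ENSG00000135069, chromosome 9, 78297143 to 78330093, plus strand), had 42.3, 46.4 and 43.8 FPKM in mimic libraries, against 63.5, 69.5 and 66.99 FPKM in scramble libraries. Its ratio of means, 0.662, equalled that of PHGDH to 3 digits, and its log2 fold change was -0.58 (SE 0.05, limma adjusted p = 0.000149). PSPH, the phosphatase of the last step (ENSG00000146733, chromosome 7, 56011051 to 56051604, minus strand), had 16.01, 15.6 and 17.5 FPKM in mimic libraries, against 21.8, 21.1 and 20.9 FPKM in scramble libraries. Its fall was smaller, with a ratio of 0.77 and a log2 fold change of -0.36 (SE 0.05, limma adjusted p = 0.00131). Every mimic library lay below every scramble library for PSAT1 and PSPH too. The 95% intervals of the log2 fold change were -0.65 to -0.46 for PHGDH, -0.70 to -0.47 for PSAT1 and -0.47 to -0.24 for PSPH.

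**Figure D1:**
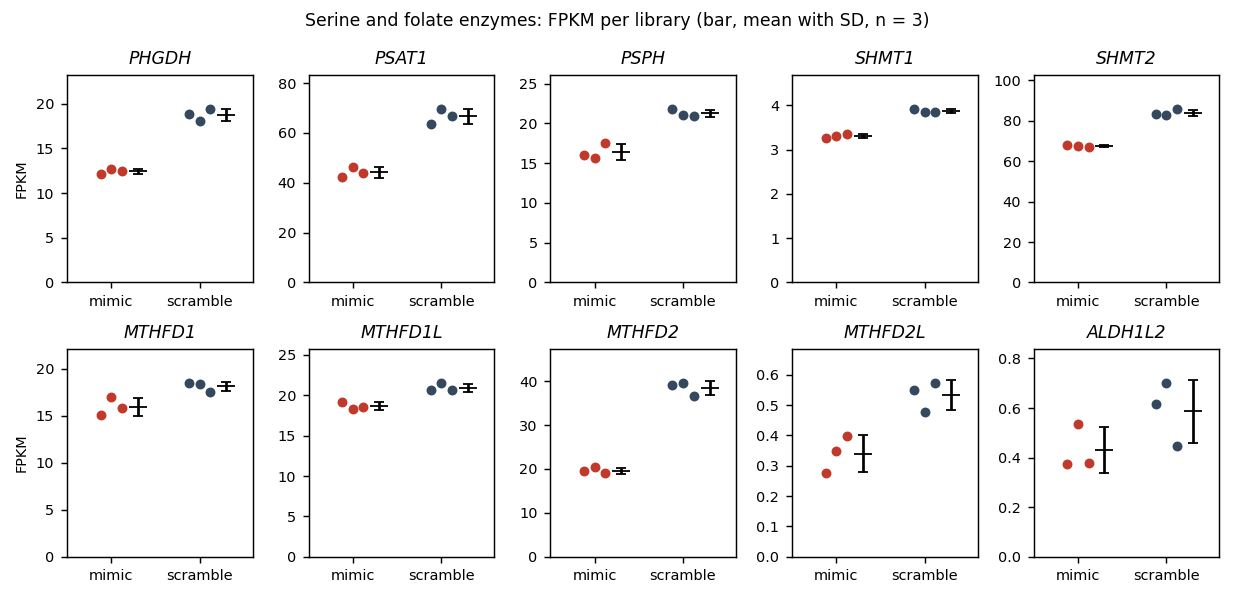
FPKM of the 10 enzyme genes in each library, mimic in red and scramble in blue, with the mean and SD of 3 libraries beside the points and each vertical axis starting at 0. The groups are apart for every gene other than ALDH1L2, and the gap is widest relative to the level in MTHFD2, at 19.6 FPKM with mimic and 38.4 FPKM with scramble on average.

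MTHFD2, the mitochondrial dehydrogenase and cyclohydrolase, had the largest change of the set. This gene (ENSG00000065911, chromosome 2, 74198562 to 74217565, plus strand) measured 19.4, 20.4 and 18.99 FPKM in mimic libraries, against 39.05, 39.5 and 36.6 FPKM in scramble libraries. The mean was 19.6 ± 0.696 FPKM with mimic and 38.4 ± 1.57 FPKM with scramble (SD, n = 3 each), a ratio of 0.511 with no overlap. Its log2 fold change was -0.93 (SE 0.045, 95% interval -1.04 to -0.83, limma adjusted p = 1.7e-05), and 52 of the 12912 tested genes, 0.403%, fell further. The authors' deposited table lists 401 genes, the smallest log2 fold change among them being 1.0 in size, and none of the 10 enzymes is in it.

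Exons of MTHFD2 share 27.2% of their length with SLC4A5 on the opposite strand. SLC4A5 was at most 0.0338 FPKM in any library. SHMT2 shares 8.83% of its exon length with AC137834.2 (at most 0.081 FPKM) and MTHFD1 8.06% with AL122035.2 (at most 0.55 FPKM), both on the opposite strand. Among smaller overlaps on the opposite strand, SHMT1 shares 2.69% with SMCR8, at 5.17 to 6.52 FPKM, above SHMT1 itself in every library. MTHFD1 shares 1.9% with ZBTB25 (0.944 to 1.08 FPKM) and ALDH1L2 1.7% with C12orf45 (0.508 to 0.65 FPKM). Whether reads were counted by strand is not known here. Of 7 annotated MTHFD2 pseudogenes, MTHFD2P1 and MTHFD2P7 were the only ones above 0.02 FPKM. MTHFD2P7 had 0.0694, 0.0565 and 0.0424 FPKM in mimic libraries, against 0.243, 0.385 and 0.247 FPKM in scramble libraries, and it was lower in every mimic library, as MTHFD2 was. MTHFD2P1 had 0.192 to 0.233 FPKM in mimic libraries, against 0.228 to 0.394 FPKM in scramble libraries, and there the groups overlapped. Reads that fit both a pseudogene and MTHFD2 could have been counted for either.

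MTHFD2L, the paralogue of MTHFD2 in mitochondria (ENSG00000163738, chromosome 4, 74114174 to 74303099, plus strand), was, with ALDH1L2, one of the 2 lowest genes of the set. It had 0.274, 0.349 and 0.397 FPKM in mimic libraries, against 0.55, 0.476 and 0.571 FPKM in scramble libraries, which is 158 to 187 reads with mimic and 247 to 339 reads with scramble. The groups did not overlap and the ratio of means was 0.638, but its mean of 0.436 FPKM was under the filter, so it was not among the tested genes. With the filter at 0.1 FPKM its log2 fold change was -0.19 (SE 0.063, limma adjusted p = 0.0627), a scale on which the added 1 shrinks so low a gene. On the recovered reads, with limma's voom and the same filter, it was -0.68 (SE 0.155, limma adjusted p = 0.00407). The fits differ in the added 1, the scale and the weighting, and which of these moved the call on MTHFD2L was not tested.

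Both serine hydroxymethyltransferases were lower with mimic. SHMT2, the mitochondrial enzyme and the most abundant of the set (ENSG00000182199, chromosome 12, 57229327 to 57234935, plus strand), measured 67.8, 67.6 and 66.9 FPKM in mimic libraries, against 83.3, 82.8 and 85.7 FPKM in scramble libraries. Its log2 fold change was -0.31 (SE 0.034, limma adjusted p = 0.000433), a ratio of 0.803. SHMT1, the cytosolic enzyme (ENSG00000176974, chromosome 17, 18327860 to 18363563, minus strand), had 3.27, 3.32 and 3.36 FPKM in mimic libraries, against 3.91, 3.85 and 3.85 FPKM in scramble libraries, with a ratio of 0.856. The groups were apart for both genes. For SHMT1 the log2 fold change was -0.18 (SE 0.045, limma adjusted p = 0.0193), and this call did not survive the removal of mimic replicate 1, scramble replicate 1 or scramble replicate 2 (highest adjusted p 0.0706).

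The formate enzymes changed least among the called genes. MTHFD1L, the mitochondrial formate-releasing synthetase (ENSG00000120254, chromosome 6, 150865549 to 151101887, plus strand), had 19.2, 18.3 and 18.5 FPKM in mimic libraries, against 20.7, 21.5 and 20.6 FPKM in scramble libraries. Its log2 fold change was -0.16 (SE 0.039, limma adjusted p = 0.0169), a call that ended when mimic replicate 2, mimic replicate 3 or scramble replicate 2 was removed (highest adjusted p 0.0612). MTHFD1, the cytosolic enzyme with 3 activities (ENSG00000100714, chromosome 14, 64388031 to 64463457, plus strand), had 15.1, 17.02 and 15.8 FPKM in mimic libraries, against 18.4, 18.4 and 17.6 FPKM in scramble libraries. The highest mimic library came close to the lowest scramble library without reaching it. Its log2 fold change was -0.17 (SE 0.051, limma adjusted p = 0.0314). Removing mimic replicate 1, mimic replicate 3, scramble replicate 1 or scramble replicate 2 ended the call on MTHFD1, as did the TPM scale and testing with no filter on low values (highest adjusted p 0.0976).

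ALDH1L2, the mitochondrial enzyme that burns the formyl group to carbon dioxide (ENSG00000136010, chromosome 12, 105019784 to 105084577, minus strand), did not pass the test. It had 0.373, 0.537 and 0.38 FPKM in mimic libraries, against 0.615, 0.699 and 0.448 FPKM in scramble libraries, from 155 to 247 reads with mimic and 204 to 328 reads with scramble. The groups overlapped, and the log2 difference was -0.15 (95% interval -0.35 to 0.06, limma adjusted p = 0.227). Its mean of 0.509 FPKM was just above the filter of 0.5, which it passed through the scramble libraries. On recovered reads its log2 difference was -0.45 with a wide interval, -0.86 to -0.04 (limma adjusted p = 0.0774), which holds the value of PHGDH as well as changes near 0.

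In all, 8 of the 9 tested enzyme genes were called lower and none higher. Of all tested genes, 16.8% were called lower and 18.7% higher, 35.5% in either direction. The enzyme genes were chosen with earlier results of these data known, so this contrast is no independent test. Without scramble replicate 2, 5 of the 8 then tested were called lower, beside 1714 of 12895 genes. With the filter at 0.1 FPKM 11.4% of tested genes were called lower. The median log2 fold change of the 9 was -0.31, beside 0.0025 for all tested genes. The same 8 had every mimic library below every scramble library, as 23.2% of tested genes did, and MTHFD2L, under the filter, did too. None had every mimic library above, as 26.0% of tested genes did. For a single gene the exact two-sided permutation test over libraries cannot go below p = 0.1, which 9 of the 10 genes reached, and ALDH1L2 gave exact p = 0.2. The call on PHGDH, PSAT1, PSPH, SHMT2 and MTHFD2 was kept under every alternative run. For PHGDH the voom fits rest on recovered reads that did not come out whole (off by up to 0.486 of a read). Its true read numbers are therefore not known.

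**Figure D2:**
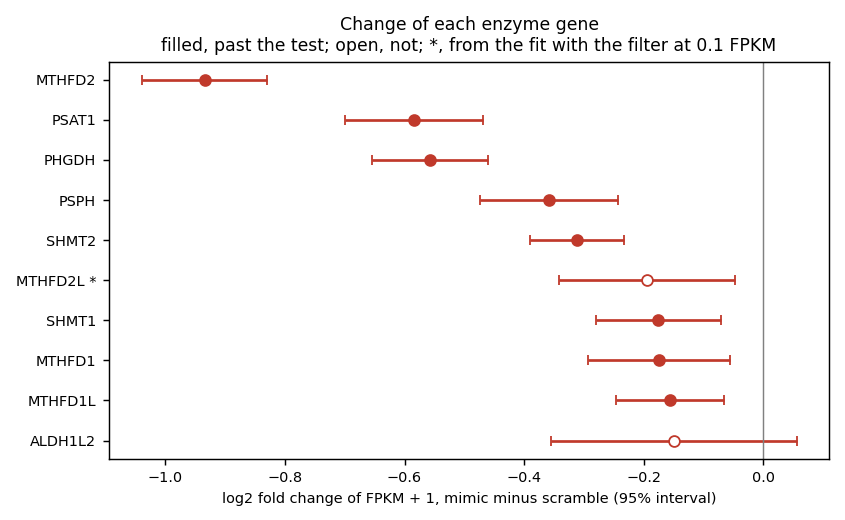
Log2 fold change of FPKM + 1, mimic minus scramble, for the 10 genes, ordered from the largest fall at the top, with 95% intervals. Filled points passed the test, open points did not or were not in it, and the asterisk marks MTHFD2L, taken from the fit with the lower filter. The interval of MTHFD2, -1.04 to -0.83, lies apart from that of PSAT1, -0.70 to -0.47, and the interval of ALDH1L2 includes 0.

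The highest and the lowest genes by level were the same in both groups. SHMT2 (67.4 FPKM with mimic, 83.9 with scramble) and PSAT1 (44.2 FPKM with mimic, 66.7 with scramble) stood above the rest. SHMT1 stood below the middle group of genes at 3.31 FPKM with mimic and 3.87 FPKM with scramble, and ALDH1L2 and MTHFD2L, whose libraries overlapped each other in both groups, were the lowest. Between these, the order of neighbours differed by group. In mimic libraries MTHFD2 (19.6 FPKM) overlapped MTHFD1L (18.7 FPKM), and PSPH (16.4 FPKM) overlapped MTHFD1 (15.97 FPKM), with PHGDH below at 12.4 FPKM. In scramble libraries MTHFD2 stood clear at 38.4 FPKM, PSPH (21.3 FPKM) overlapped MTHFD1L (20.9 FPKM), and PHGDH (18.8 FPKM) overlapped MTHFD1 (18.1 FPKM). These levels depend on the gene length used. For the 9 genes other than PHGDH the deposited values were whole multiples of 1 read at the union exon length of GENCODE 29, which runs from 2188 bases in PSAT1 to 9819 in MTHFD2L, so a gene with many annotated exons that these cells do not use is set low. PHGDH did not come out whole at this length, so its level rests on a length not known here.

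The balance between compartments was read as ratios of FPKM within a library. SHMT2 stood at 20.7, 20.4 and 19.9 times SHMT1 in mimic libraries, against 21.3, 21.5 and 22.3 times in scramble libraries. The groups did not overlap, but the difference of the log2 ratio was only -0.09 (exact permutation p = 0.1, two-sided). MTHFD2 stood at 70.8, 58.4 and 47.9 times MTHFD2L in mimic libraries, against 70.96, 82.9 and 64.1 times in scramble libraries. These groups overlapped (log2 difference -0.31, exact permutation p = 0.2), so MTHFD2 was not shown to fall further than MTHFD2L as a ratio. The difference was -0.17 without mimic replicate 3, -0.45 without mimic replicate 1 and -0.74 (exact permutation p = 0.1) with 1 FPKM added to both genes. MTHFD1L was 1.27, 1.08 and 1.17 times MTHFD1 in mimic libraries, against 1.12, 1.17 and 1.17 times in scramble libraries, with a log2 difference of 0.02 (exact permutation p = 0.8) that turned to -0.04 without mimic replicate 1. The exact permutation test, the one used for these 3 ratios, cannot go below 0.1 with 3 libraries a group, so it cannot pass 0.05.

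**Figure D3:**
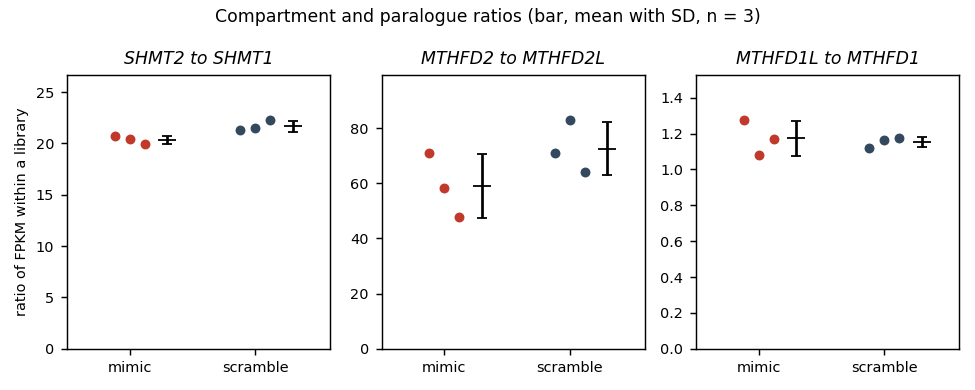
Ratios of FPKM within each library for SHMT2 to SHMT1, MTHFD2 to MTHFD2L and MTHFD1L to MTHFD1, mimic in red and scramble in blue, with mean and SD of 3 libraries and axes from 0. The mimic libraries sit just under the scramble libraries for the SHMT pair (20.4 ± 0.409 with mimic and 21.7 ± 0.516 with scramble), and the groups overlap for both MTHFD pairs.

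Genes around these enzymes were read from 7 lists. Beside their counts stand the shares over all tested genes, 16.8% called lower and 18.7% higher. Among folate uptake and retention genes, 1 of 5 tested was called lower and none higher (median log2 fold change -0.05), and the folate receptors FOLR1 and FOLR2 were listed at 0. The called gene, SLC25A32, carries folate into mitochondria and had 15.2, 15.6 and 14.3 FPKM in mimic libraries, against 16.6, 16.5 and 16.5 FPKM in scramble libraries (limma adjusted p = 0.0489). Its call was lost in 12 of the alternatives, among them the removal of each library in turn save mimic replicate 2. The reduced folate carrier SLC19A1 (-0.05), the proton-coupled carrier SLC46A1 (-0.16) and FPGS, which traps folates by adding glutamates (0.10), did not pass the test, though SLC46A1 passed on recovered reads (-0.36).

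Of 7 other folate cycle enzymes tested, 3 were called lower and 1 higher (median log2 fold change -0.17). TYMS, thymidylate synthase, averaged 31.3 ± 1.36 FPKM with mimic and 41.1 ± 2.37 FPKM with scramble (SD, n = 3 each), a log2 fold change of -0.38 (limma adjusted p = 0.00133). MTHFS, which returns a stored formyl folate to the active pool, had 0.616, 0.646 and 0.881 FPKM in mimic libraries, against 1.03, 1.02 and 1.01 FPKM in scramble libraries (log2 fold change -0.24, limma adjusted p = 0.043). The groups did not overlap, but the call on MTHFS was lost in 11 alternatives, among them the removal of each library in turn save mimic replicate 3.

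The glycine cleavage system, which would take up the glycine made by SHMT2, had 2 of its 4 genes under the filter. GLDC, its decarboxylase, had 0.282 to 0.437 FPKM in mimic libraries, against 0.414 to 0.569 FPKM in scramble libraries, and AMT was at most 0.0475 FPKM. Of the remaining genes, neither GCSH (0.07, turning to -0.04 without scramble replicate 2) nor DLD (0.14, called on the TPM scale only) passed the test. In the methionine cycle and transsulfuration list, 2 of 9 tested genes were lower and 1 higher (median 0.05). MAT2A, the S-adenosylmethionine synthetase, averaged 76.8 ± 4.72 FPKM with mimic and 98.5 ± 3.45 FPKM with scramble (SD, n = 3 each; log2 fold change -0.36, limma adjusted p = 0.00176). AHCY, which clears S-adenosylhomocysteine, was lower (-0.25), and AHCYL2, its relative, was higher (0.39), while MAT2B (0.09) did not pass.

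Purine synthesis, a main user of formyl folates, had 6 of 10 tested genes lower and 2 higher (median log2 fold change -0.21). GART, whose enzyme takes up a formyl unit, averaged 30.5 ± 1.03 FPKM with mimic and 38.6 ± 1.67 FPKM with scramble (SD, n = 3 each), a log2 fold change of -0.33. PFAS (-0.37) and PAICS (-0.23), in the middle of the pathway, were lower too. ADSS2, which commits inosine monophosphate to adenylate, went the other way, with 41.97, 38.6 and 38.6 FPKM in mimic libraries, against 27.8, 25.97 and 25.2 FPKM in scramble libraries (log2 fold change 0.58, limma adjusted p = 0.000191). The list thus held changes of both signs, and its largest was upward.

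Genes that move serine or use it elsewhere had 3 of 11 tested higher and 1 lower (median log2 fold change -0.02). SPTLC2, a subunit of the serine palmitoyltransferase that starts sphingolipid synthesis, averaged 14.8 ± 0.852 FPKM with mimic and 9.35 ± 0.649 FPKM with scramble (SD, n = 3 each), a log2 fold change of 0.61 (limma adjusted p = 0.000304). SERINC1 (0.35) and SERINC3 (0.29), membrane proteins named for serine incorporation, were higher as well. SLC1A5, a carrier of neutral amino acids that include glutamine and serine, was lower, at 36.5 ± 2.4 FPKM with mimic and 50.2 ± 2.6 FPKM with scramble (SD, n = 3 each; log2 fold change -0.45, limma adjusted p = 0.00093).

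**Figure D4:**
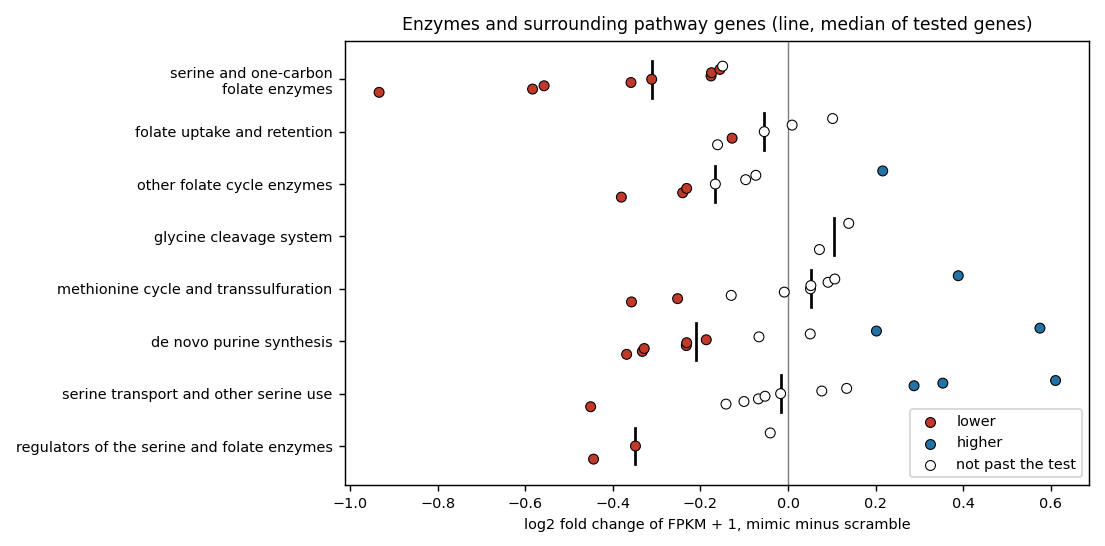
Log2 fold change of FPKM + 1, mimic minus scramble, of each tested gene in the enzyme set (top) and in the 7 lists around it. Red points were called lower, blue higher and open points neither, and the line marks the median of the tested genes, from -0.35 in the regulators and -0.31 in the enzyme set to 0.11 in the glycine cleavage genes.

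Transcription factors known to act on these genes were measured as well. ATF4 mRNA had 98.4, 92.5 and 93.8 FPKM in mimic libraries, against 127.4, 127.3 and 133.9 FPKM in scramble libraries (log2 fold change -0.44, SE 0.041, limma adjusted p = 0.000215). MYC had 135.1, 138.5 and 142.1 FPKM in mimic libraries, against 176.5, 177.2 and 176.4 FPKM in scramble libraries (log2 fold change -0.35, limma adjusted p = 0.000336). Both were lower in all 3 mimic libraries than in any scramble library, while NFE2L2, which encodes NRF2, did not pass the test (-0.04, 95% interval -0.14 to 0.06). ATF4 is controlled largely through its translation, which these data do not measure.

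The tested genes most like MTHFD2 over the 6 libraries were found by the Euclidean distance between log2(FPKM + 1) values centred on each gene's mean. The closest 5 were CSGALNACT2 (distance 0.059), HINT3 (0.078), PRKCI (0.082), TGFBR2 (0.103) and RRM2 (0.103), with log2 fold changes between -0.99 and -0.91. With 0.1 added to FPKM in place of 1, HINT3 moved to -1.22 and PRKCI to -1.09, against -0.97 for MTHFD2. On that scale CSGALNACT2, RRM2 and TGFBR2 lay between -1.03 and -0.97, and distances were not computed. RRM2, a subunit of ribonucleotide reductase, had 30.3, 30.5 and 29.3 FPKM in mimic libraries, against 61.9, 60.3 and 59.7 FPKM in scramble libraries. Among the enzymes themselves PSAT1 came next to MTHFD2 at rank 181 and PHGDH at rank 214, so many genes outside the set shared its pattern more closely. This likeness is a description over 6 libraries in 2 groups and takes in the group difference as well as the spread within groups.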

How the data were processed

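Build GRCh38 and the programs HISAT2 2.1.0, Trimmomatic 0.39, DESeq2 1.26.0 and featureCounts 2.0.1 are named, without roles, per the submitters' processing notes. Which annotation was used, whether strand was used and how FPKM was computed were not given in the sources used here. As deposited by the authors, the main file holds FPKM values for 58051 genes. The authors' deposited comparison table holds, per the file headers, mean normalized counts (a signal), a log2 fold change and its error, a test statistic (a score) and p-values; only membership in it was used here. In all 401 genes its fold change had the sign of mimic minus scramble FPKM, and in all 401 the sign opposite to its own test statistic, for a reason not known here.

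Symbols matched 57447 identifiers; positions and union exon lengths are from GENCODE 29. FPKM times length gave whole reads (tolerance 0.02) for 95.7% to 96.0% of values up to 50 reads. Log2(FPKM + 1) was fitted with limma 3.58.1 (R 4.3.3), group only, for genes averaging 0.5 FPKM or more, with Benjamini-Hochberg adjustment at 0.05. The model was tested on simulated data. Named genes were the members, up to 4 genes per list with the smallest p, the 5 genes most like the member with the largest change, and markers; FOLR1, FOLR2, GLDC, AMT, the antisense partners and the pseudogenes were added after their values were seen. Members and lists were chosen with earlier results of these data known. Alternatives changed the pseudocount (0.1), filter, scale, variance model, replicate block and libraries; voom on recovered reads was added after seeing the data. Single values of some list genes are not reported here.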

Additional observations from a re-analysis of the deposited data

How the results depend on the processing

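With all libraries, the alternatives called 3290 to 5094 genes, against 4584 of 12912, and 7 to 9 enzyme genes lower, against 8 of 9. The number tested differed too. The 3290 were of 6757 genes at the filter of 5 FPKM, with 1628 genes and all 7 tested enzyme genes lower. With no filter 3354 of 30416 genes were called, 1589 of them lower, and 7 of 10 enzyme genes. The 5094 were of 17664 genes (voom, filter at 0.1 FPKM), 2332 of them lower, with 9 of 10 enzyme genes. Leaving out 1 library gave 5 to 8 enzyme genes lower. Without scramble replicate 2 it was 5 of 8 tested, beside 1714 of 12895 genes. None was called higher under any alternative. Of 142 values of single enzyme genes under alternatives, 129 kept direction and call, 12 lost the call (6 in MTHFD1, 3 each in SHMT1 and MTHFD1L) and 1, MTHFD2L on recovered reads, gained it; the cause was not tested. The mimic minus scramble difference in the log2 ratio of MTHFD1L to MTHFD1 lay between -0.0391 and 0.0817 when single libraries were left out, against 0.0216. The log2 fold change of GCSH lay between -0.041 (without scramble replicate 2) and 0.2144, against 0.0718.

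Deviations of same-numbered libraries correlated at -0.062, 0.241 and 0.054, so the numbers are not read as pairs. With the replicate number as a block 4609 of 12912 genes were called, 2182 of them lower, and 8 of 9 enzyme genes, all lower. The exact permutation p of the 3 ratios was then 0.25, 0.25 and 1.0, where 0.25 is the smallest that 3 pairs allow. MTHFD2L and ALDH1L2 had the fewest reads of the set, at 155 to 339 reads a library. Whether depth limited their calls was not tested. The 2 voom alternatives were added after seeing the data.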
